A study of Mus musculus with 6 samples.

Results

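YTHDC1 peaks on the mitochondrial chromosome (chrM) were taken from 6 LACE-seq libraries of mouse muscle cells. Each peak that the authors had placed on chrM was kept, whatever its strand, which gave 902 of the 178779 peaks in all 6 libraries together. The mouse mitochondrial genome of the build used (mm9) is 16299 nt long and holds 37 genes: 2 for rRNA, 22 for tRNA and 13 for mRNA. LACE-seq maps the RNA bound by a protein: cells are irradiated with UV (here 400 mJ) to crosslink protein to RNA, the protein is precipitated, and reverse transcription stops at the crosslinked nucleotide.

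All 6 libraries were made with an antibody against YTHDC1, from cells labelled WT. Of these, 4 came from satellite cells, the muscle stem cells, activated for 48 hr (ASC-48h), as biological replicates B1 and B2 with technical replicates T1 and T2 each. The other 2 came from C2C12, an established mouse myoblast line, as replicates 1 and 2, which the labels call biological and the text of the study calls technical. No input or control precipitation was analysed here, so a peak is not set against the abundance of its RNA. ASC-48h and C2C12 differ at once in cell source, in depth and in input, since the study used far more cells for each C2C12 library.

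YTHDC1 is a reader of N6-methyladenosine (m6A), a mark laid on RNA, and is known as a nuclear protein. Mitochondrial RNA is made inside the organelle, from a small circular genome transcribed along its whole length on both strands. The long transcripts are cut at the tRNAs that lie between the other genes, which frees the rRNAs and mRNAs. The rRNAs form the mitochondrial ribosome, and the mRNAs encode subunits of the respiratory chain and of ATP synthase.

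A peak is 1 or more 20-nt bins that were called together, and its value is the mean number of reads per bin. Each bin of a peak is given that mean, so the reads of a bin within a wider peak are unknown. The strand that the files give was opposite to the gene in 20040 of 21490 C2C12 shared nuclear peaks that lie in genes of 1 orientation (93.3%) and in 807 of 1222 such ASC-48h peaks (66.0%). Deposited minus was therefore read as RNA of the plus strand, the strand of both rRNAs, 12 mRNAs and 14 tRNAs. RNA of the minus strand carries mt-Nd6 and 8 tRNAs. Coordinates are 1-based positions on chrM of mm9. A bin may lie up to a read length from the crosslinked nucleotide, since the sources used here do not say which end of a read was binned.

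The bins below carry the results that follow, and each is printed as RNA strand sequence, 5′ to 3′, with T for U. Capitals mark the DRACH motif in which m6A is usually found, that is A, G or T, then A or G, then A, then C, then A, C or T, searched on the RNA strand only. The first 5 bins were the highest of those called in all 4 ASC-48h libraries, in the large and small rRNAs (mt-Rnr2, mt-Rnr1) and in the tRNAs for valine, tryptophan and methionine.
mt-Rnr2, chrM:1521-1540, plus: ttatagccaaaagagGGACA
mt-Tv, chrM:1041-1060, plus: attaaagcatctggcctaca
mt-Tw, chrM:4961-4980, plus: atatactagtccgcgagcct
mt-Rnr1, chrM:941-960, plus: acataattaatttctAGACA
mt-Tm, chrM:3861-3880, plus: taagctatcgggcccatacc

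The bins of the highest C2C12 peaks, besides the one at chrM:1521-1540, lay in the same rRNAs and at the border of mt-Tf, the tRNA for phenylalanine, with mt-Rnr1.
mt-Rnr2, chrM:1361-1380, plus: ttttatgaatcaactcgtct
mt-Rnr1, chrM:461-480, plus: tataatacacgacagctaag
mt-Rnr2, chrM:1141-1160, plus: aaatcaAAACAtttatccta
mt-Tf and mt-Rnr1, chrM:61-80, plus: catAAACAcaaaggtttggt
mt-Rnr2, chrM:1661-1680, plus: ttaattccataatttacacc

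The last set shows a bin called in all ASC-48h libraries and in neither C2C12 library (mt-Rnr2), bins of RNA of the minus strand in the tRNAs for proline and serine and in the control region, and the highest C2C12 bins antisense to an mRNA on either strand.
mt-Rnr2, chrM:2421-2440, plus: ttacgacctcgatgttggat
mt-Tp, chrM:15361-15380, minus: gtggggagtagctccttctt
mt-Ts1, chrM:6861-6880, minus: ttcctttcttattttacttt
control region, chrM:15961-15980, minus: AGACTgtgtgctgtcctttc
antisense mt-Nd5, chrM:13381-13400, minus: taggagagttagggatgttt
antisense mt-Nd6, chrM:13841-13860, plus: tcctcagtagctatagcagt

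Of the 16 bins printed, 5 have exact copies of their 20 nt in the nuclear genome: mt-Ts1 has 3, the control region and antisense mt-Nd5 have 2 each, and chrM:1521-1540 and mt-Tw have 1 each.

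Mitochondrial peaks were few but present in each library. B1 of ASC-48h held 43 (T1) and 95 (T2) of them, B2 held 107 (T1) and 195 (T2), and the C2C12 replicates held 220 and 242. In that order, which is kept wherever 4 and 2 values are given, they took 0.868%, 1.69%, 2.11% and 1.91% of the reads in peaks in ASC-48h, and 0.752% and 0.683% in C2C12. Each ASC-48h library thus lay above both C2C12 libraries, with B1 T1 nearest to them. The mean was 1.65% ± 0.518 (SD, n = 2 biological replicates) in ASC-48h and 0.718% ± 0.0494 (SD, n = 2) in C2C12, a difference of -0.93 percentage points for C2C12 minus ASC-48h. The exact two-sided permutation test gave p = 0.333, the smallest that 2 against 2 replicates allow. If the C2C12 libraries are technical replicates, as the text of the study has it, C2C12 is 1 sample and no test between the cell types can be made. The files hold peaks and not all reads, so the share of mitochondrial RNA in a whole library is unknown. Mean shares of reads in peaks depended on the settings. In ASC-48h and C2C12 they were 0.946% and 0.329% without nuclear copies and 2.96% and 1.71% at p of at most 0.00001. With 6 reads per bin or more the ASC-48h share was 2.50%.

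The libraries differed in the number of peaks called, from 7925 to 71992, and in the lowest value of a called bin, 4 to 6 reads. Of the markers of satellite cells and myoblasts, Pax7 held 1, 1, 2 and 10 peaks in ASC-48h and 0 and 1 in C2C12, and Myf5 held 0, 0, 1 and 0 against 2 and 2. Myod1 held 0, 2, 1 and 6 against 5 and 3, and Des held 0, 3, 1 and 4 against 18 and 17. Among markers of other cells, Ptprc had none in any library, Pecam1 had 1 in each, and Pdgfra had 2 and 4 in C2C12 and none in ASC-48h. A peak shows bound RNA, so these counts are no measure of expression.

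Mitochondrial peaks were found again between libraries more often than peaks at large. A peak was counted as found again when a peak of the second library overlapped it by 1 nt or more on the same strand. In B1, 40 of 43 T1 peaks were found in T2 (93.0%, exact Clopper-Pearson 95% interval 80.9 to 98.5%), against 72.5% of all peaks of that library. In B2 the count was 88 of 107 (82.2%, 73.7 to 89.0%) against 64.4%. Of the 40 peaks shared in B1, 36 were shared in B2 (90.0%, 76.3 to 97.2%) against 41.5%. In C2C12, 196 of 220 replicate 1 peaks were found in replicate 2 (89.1%, 84.2 to 92.9%) against 48%. Intervals cover counting error over peaks only, and neighbouring peaks are not independent. Calls were dense on chrM: in C2C12 replicate 2, 51.2% of rRNA bins and 37.2% of plus-strand mRNA bins were called. How often peaks would overlap there by position alone was not tested.

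The height of the peaks bears on these shares, as high peaks were found again more often. Among C2C12 replicate 1 peaks under 10 reads per bin, 59 of 77 mitochondrial peaks were found again (76.6%) against 40.7% of all. At 10 to 19 reads per bin the shares were 94.6% and 81.9%, and at 20 or more they were 100% (31 of 31) and 97.8%. In C2C12 the gap was thus widest among low peaks. In ASC B1 the shares at 10 to 19 reads per bin were 100% (15 of 15) and 98.5%. In ASC B2 the order was turned at that height, with 24 of 27 mitochondrial peaks (88.9%, 70.8 to 97.6%) against 92.4% of all, while under 10 reads per bin it was 78.7% against 60.7%.

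The 36 peaks shared by the ASC-48h libraries were 1.47% of 2443 such peaks of the genome. The 196 found in both C2C12 libraries were 0.674% of 29087. Sharing was chained, T1 with T2 and then B1 with B2. Among the 36, chrM:661-680 of mt-Rnr1 had no call in B2 T2 itself. Of the 36, 29 were also among the C2C12 shared peaks (80.6%, 64.0 to 91.8%), against 61.4% of all ASC-48h shared peaks. Without B1 T1 it was 54 of 60 (90.0%), against 60.1% of all. Under 10 reads per bin it was 17 of 20 (85.0%, 62.1 to 96.8%) against 52.2%. For peaks of 10 to 19 reads per bin the order was turned, with 11 of 15 mitochondrial peaks (73.3%, 44.9 to 92.2%) against 89.2%. The 7 that were not found lay in mt-Rnr2 (chrM:1401-1440, 1601-1620 and 2421-2440), mt-Rnr1 (chrM:101-120 and 481-500), mt-Nd1 (chrM:3561-3580) and mt-Ts1 (chrM:6861-6880). Except for chrM:2421-2440 and 481-500, each of these was called in a C2C12 library, but not in both. At stricter settings the mitochondrial share found was lower, 7 of 12 at p of at most 0.00001 and 6 of 10 at 10 reads per bin or more. With the 43 highest peaks of each library it was 11 of 20. Shares of all ASC-48h peaks are not given at these settings.

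**Figure D1:**
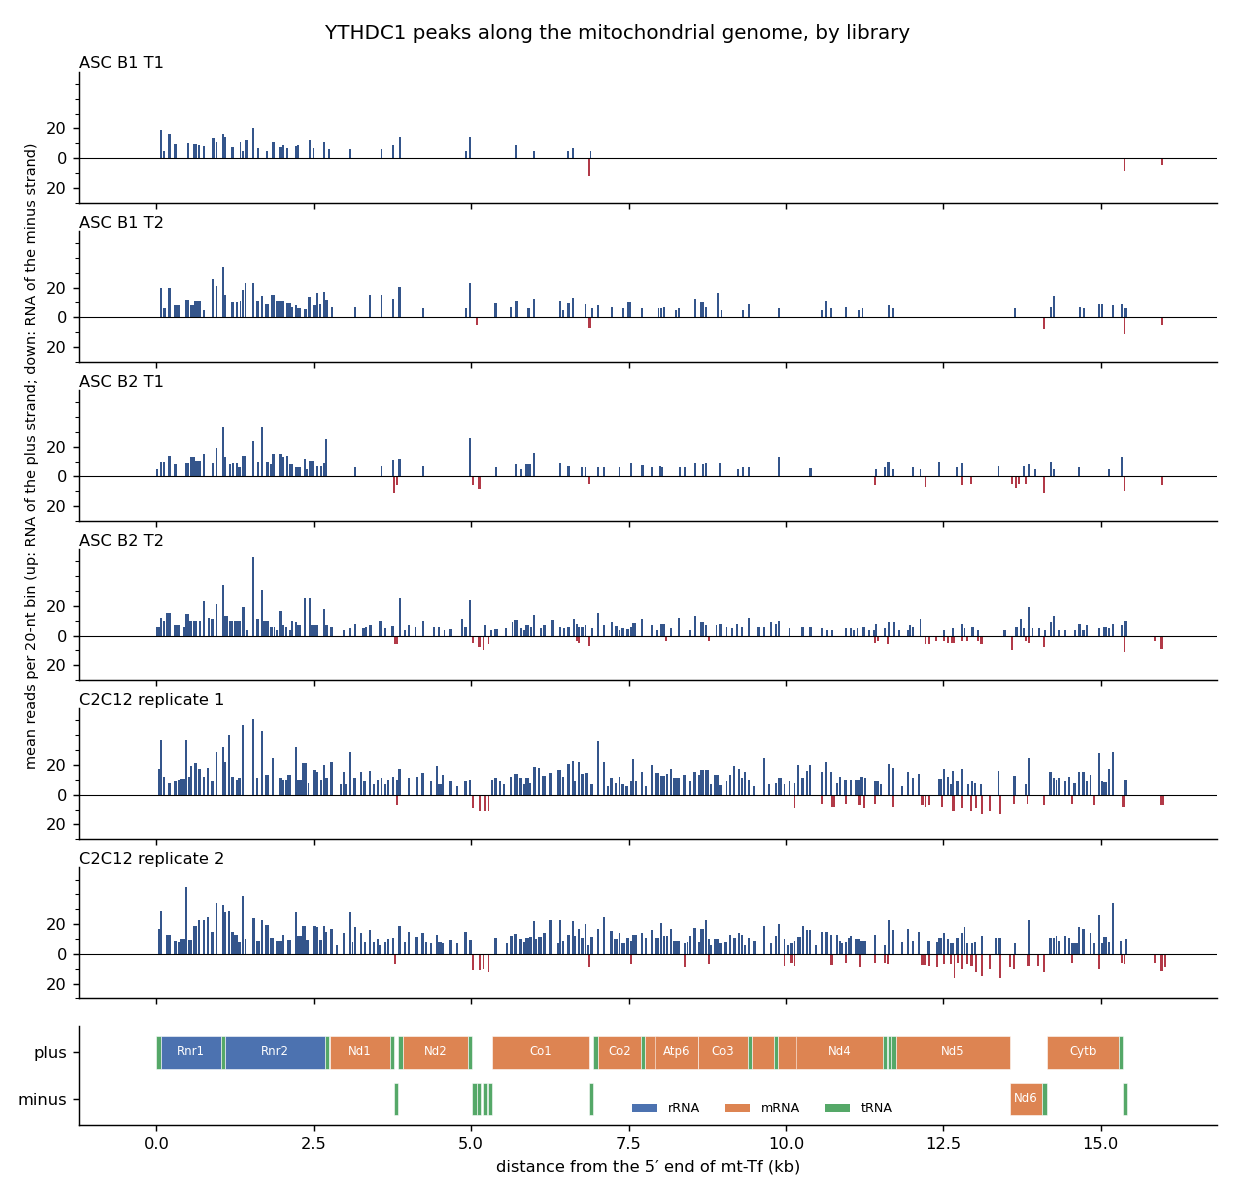
Mean reads per bin of each called 20-nt bin along the mitochondrial genome (x axis: distance from the 5′ end of mt-Tf in kb), 1 panel per library, with RNA of the plus strand drawn upward and RNA of the minus strand downward. Bins over both rRNA genes were called in all 6 libraries, bins over the mRNAs were few in ASC B1 T1 (7 peaks) and many in C2C12 (136 and 149 peaks), and no bin was called on the strand opposite to the rRNAs.

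The 2 rRNA genes held 27, 32, 35 and 36 peaks in the ASC-48h libraries and 38 and 36 in the C2C12 libraries. These numbers were close in all 6 libraries, although the number of mitochondrial peaks ranged from 43 to 242. A peak can hold several bins, and the called rRNA bins varied more, with 35, 59, 52 and 63 in ASC-48h and 55 and 65 in C2C12. The 13 mRNAs held 7, 45, 45 and 108 peaks on the strand of the RNA in ASC-48h and 136 and 149 in C2C12. The tRNAs held 7, 14, 19 and 21 against 18 and 21. The rRNA share of mitochondrial peaks therefore ran from 62.8% in B1 T1 through 33.7%, 32.7% and 18.5% to 17.3% and 14.9% in C2C12.

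Of the shared peaks, 25 of 36 in ASC-48h lay in the rRNAs (69.4%) and 36 of 196 in C2C12 (18.4%). The ASC-48h share rested on B1 T1: without it 60 peaks were shared by the other ASC-48h libraries, and 50.0% of them lay in the rRNAs. Among the 43 highest peaks of each library, a choice made after seeing the data, the shared peaks in the rRNAs were 75% in ASC-48h and 50.0% in C2C12. Without peaks that have nuclear copies they were 80.0% and 35.6%. The remaining ASC-48h shared peaks were 6 in tRNAs, 4 in mRNAs and 1 in the control region, and without B1 T1 they were 12, 17 and 1. In C2C12, 123 lay in mRNAs and 16 in tRNAs on the strand of the RNA, 18 and 2 lay antisense to them, and 1 lay in the control region.

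To set libraries side by side at the same number of peaks, the same 43 highest peaks were also counted per library. They were all the peaks of B1 T1. Their lowest values were 5, 9, 9 and 10 reads per bin in ASC-48h and 17 and 17 in C2C12, so the height was not matched. The rRNA genes held 62.8%, 51.2%, 55.8% and 46.5% of the 43 in ASC-48h and 37.2% and 41.9% in C2C12. The groups did not overlap, but the distance between ASC B2 T2 and C2C12 replicate 2 was small beside their intervals (31.2 to 62.3% and 27.0 to 57.9%). On the mRNAs there were 7, 15, 9 and 14 of these peaks in ASC-48h and 21 and 20 in C2C12.

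**Figure D2:**
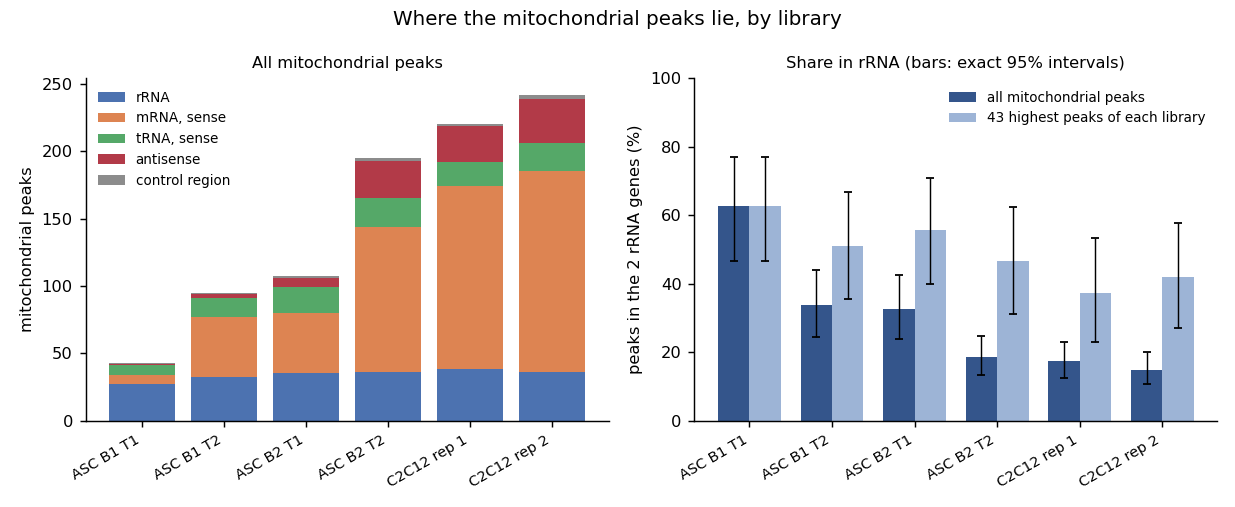
Left: number of mitochondrial peaks per library, stacked by class. Right: percent of peaks in the rRNA genes, over all mitochondrial peaks and over the 43 highest of each library, with exact 95% intervals for counting error. The rRNA part of the left bars stays between 27 and 38 peaks while the mRNA part goes from 7 to 149.

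The small-subunit rRNA, mt-Rnr1 (chrM:70-1024, plus), held 10 ASC-48h shared peaks, or 10.5 per kb, and 14 C2C12 shared peaks, or 14.7 per kb. The large-subunit rRNA, mt-Rnr2 (chrM:1094-2675, plus), held 15 and 22, or 9.48 and 13.9 per kb. Of the 48 bins of mt-Rnr1, 31.3%, 43.8%, 37.5% and 47.9% were called in ASC-48h and 45.8% and 47.9% in C2C12. Over mt-Rnr1 the groups overlapped, since ASC B2 T2 equalled C2C12 replicate 2. Over both rRNAs, 25 of 127 bins were called in all 4 ASC-48h libraries (19.7%) and 51 in both C2C12 libraries (40.2%).

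The highest ASC-48h peak was in mt-Rnr2 at chrM:1521-1540, with 20, 23, 24 and 53 reads per bin in ASC-48h and 51 and 24 in C2C12. Each cell type had 1 library above 50 reads and the rest between 20 and 24, so the groups overlapped. Its bin ends in a DRACH motif. In mt-Rnr1, chrM:941-960 had 11, 21, 19 and 21 reads per bin in ASC-48h and 29 and 34 in C2C12, with both C2C12 values above all ASC-48h values.

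Among the highest C2C12 peaks, chrM:1361-1380 of mt-Rnr2 had 5, 18, 14 and 19.5 reads per bin in ASC-48h and 47 and 39 in C2C12. In mt-Rnr1, chrM:461-480 was not called in B1 T1, had 11.5, 9 and 14.5 in the other ASC-48h libraries and 37 and 45 in C2C12. Its ASC-48h values are means of peaks that also cover chrM:481-500. Both bins thus had higher values in C2C12 than in any ASC-48h library. The bin across the end of mt-Tf and the start of mt-Rnr1, chrM:61-80, had 19, 20, 10 and 12 against 37 and 29. It tied for the fifth place by C2C12 mean, 33, with chrM:1661-1680 of mt-Rnr2. That bin had 43 and 23 reads per bin in C2C12 and 14, 33 and 31 in the ASC-48h libraries other than B1 T1, where it was not called, so its groups overlapped. Its mean over those 3 libraries was 26. A lower mt-Rnr2 peak, chrM:2201-2220, chosen after its values were seen, had 8, 8, 6 and 9 against 32 and 28, the same order.

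At chrM:1141-1160 of mt-Rnr2 the C2C12 libraries had 40 and 29 reads per bin and no ASC-48h library had a call, although ASC B2 T1 and B2 T2 had calls of 8 and 9.5 in the next bin. Chosen after its values were seen, chrM:2421-2440 of mt-Rnr2 showed the opposite. It had 12, 13.5, 10.3 and 25 reads per bin in ASC-48h and no call in C2C12, whose replicates had 8 and 9.5 in the bin before it. The B1 T2 value is the mean of a peak that also covers that bin before it. The B2 T1 value is the mean of a peak that also covers chrM:2481-2500. Of 480 bins called in any library, 3 were called in all ASC-48h libraries and no C2C12 library (0.625%), against 0.549% of bins called anywhere in the genome. In C2C12, 75 were called in both libraries and in no ASC-48h library (15.6%), against 19.4% in the genome. Of the bins called in all ASC-48h libraries, those without a C2C12 call were 3 of 37 (8.11%, 1.70 to 21.9%), against 28.8% in the genome. Of the bins called in both C2C12 libraries, those without an ASC-48h call were 75 of 253 (29.6%, 24.1 to 35.7%), against 85.3% in the genome. Of the 75, 58 lay on mRNAs, 7 on rRNAs and 10 antisense to mRNAs.

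In all 6 libraries, 30 bins were called, 28 on RNA of the plus strand and 2 on RNA of the minus strand. Reads per bin are not scaled to library depth, so the 30 were read against all 1570 bins of the genome that were called in all 6 libraries. In 13 of the 30 both C2C12 values lay above all ASC-48h values (43.3%, 25.5 to 62.6%), against 17.3% of all such bins. In 4 of the 30 both lay below (13.3%, 3.76 to 30.7%), against 2.68%. These 4 were the mt-Tw bin, the mt-Tp bin and the neighbouring pair of mt-Rnr1, chrM:181-220, a pair named after its values were seen. The pair had 16, 19.5, 13.5 and 15.3 reads per bin in ASC-48h and 8 and 12.7 in C2C12. Bins of the same peak carry the same mean, so the pair repeats the same value in each library. Both intervals count such bins as separate and are therefore too narrow.

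**Figure D3:**
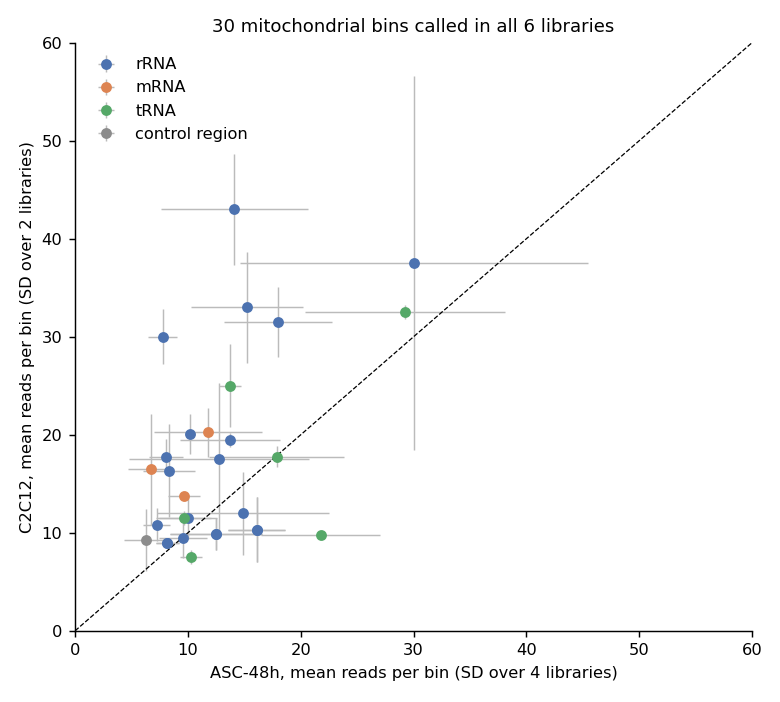
Mean reads per bin in C2C12 (y axis, SD over 2 libraries) against ASC-48h (x axis, SD over 4 libraries) for the 30 mitochondrial bins called in all 6 libraries, coloured by class, with a dashed line of equal values. The ASC-48h SD mixes technical and biological replicates. The tRNA point near 21.8 on the x axis is mt-Tw, which lies below the line, and the rRNA point near 43 on the y axis is chrM:1361-1380.

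Heights of called bins were most alike between the replicates of C2C12 and between technical replicates of ASC-48h. Over the 253 bins called in both C2C12 libraries, Pearson's r of log2 reads per bin was 0.73. Technical replicates of ASC-48h gave 0.66 over 46 bins (B1) and 0.65 over 104 bins (B2). Pairs of a B1 and a B2 library gave 0.35 to 0.53 over 43 to 101 bins, and pairs of an ASC-48h and a C2C12 library gave 0.04 to 0.42 over 41 to 183 bins, so these ranges overlapped. The bins of a pair share a genome and lie next to each other, so these values are descriptions.

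The 4 ASC-48h shared peaks in mRNAs lay in 2 genes. mt-Co1, which encodes subunit 1 of cytochrome c oxidase, held 3 and mt-Nd1, a subunit of complex I, held 1. The mt-Co1 peak at chrM:5981-6000 had 5, 12, 16 and 14 reads per bin in ASC-48h and 18.5 and 22 in C2C12. Its peak at chrM:5701-5720 had 9, 11, 8 and 10.7 against 14 and 13.5, and that at chrM:6521-6540 had 5, 9.5, 7 and 5.5 against 20.5 and 12.5. C2C12 was above ASC-48h in all 3. The mt-Nd1 peak at chrM:3561-3580 had 6, 15, 7 and 10 reads per bin in ASC-48h, was at 11 in C2C12 replicate 1 and was not called in replicate 2. The number of genes rested on B1 T1: without it, 8 of the 13 mRNAs held a shared ASC-48h peak, and mt-Co1 held 7 and mt-Nd1 held 2.

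Across the 541 bins of the 12 plus-strand mRNAs, 1.29%, 9.24%, 7.95% and 25.1% were called in ASC-48h and 34.4% and 37.2% in C2C12. ASC B1 T1 and B2 T1 had nearly the same number of reads in all peaks, 57953 and 58851, and yet 1.29% and 7.95% of these bins. Reads in all peaks were 80468 in B1 T2 and 111729 in B2 T2, against 523067 and 607366 in C2C12. Cell type, depth and number of cells used therefore cannot be told apart here.

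Per length, C2C12 shared peaks were densest in mt-Co3 (15.3 per kb), mt-Atp8 (14.7) and mt-Co2 (14.6), which encode subunits of cytochrome c oxidase and ATP synthase. Of the 40 bins of mt-Co3, 0%, 15.0%, 12.5% and 25.0% were called in ASC-48h and 42.5% and 47.5% in C2C12. The sparsest were mt-Nd6 (3.85 per kb), mt-Nd3 (5.75) and mt-Nd5 (7.68), all of complex I. In mt-Nd5, 0%, 0%, 6.59% and 15.4% of 91 bins were called in ASC-48h and 19.8% and 26.4% in C2C12. The densest mRNAs were thus near the rRNAs in peaks per kb, and the sparsest were well below them. Chosen after its values were seen, chrM:15181-15200 of mt-Cytb was the highest mRNA bin in C2C12 replicate 2, with 29 and 34 reads per bin, and had 8 in ASC B1 T2 and B2 T2 and no call in T1 of either.

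**Figure D4:**
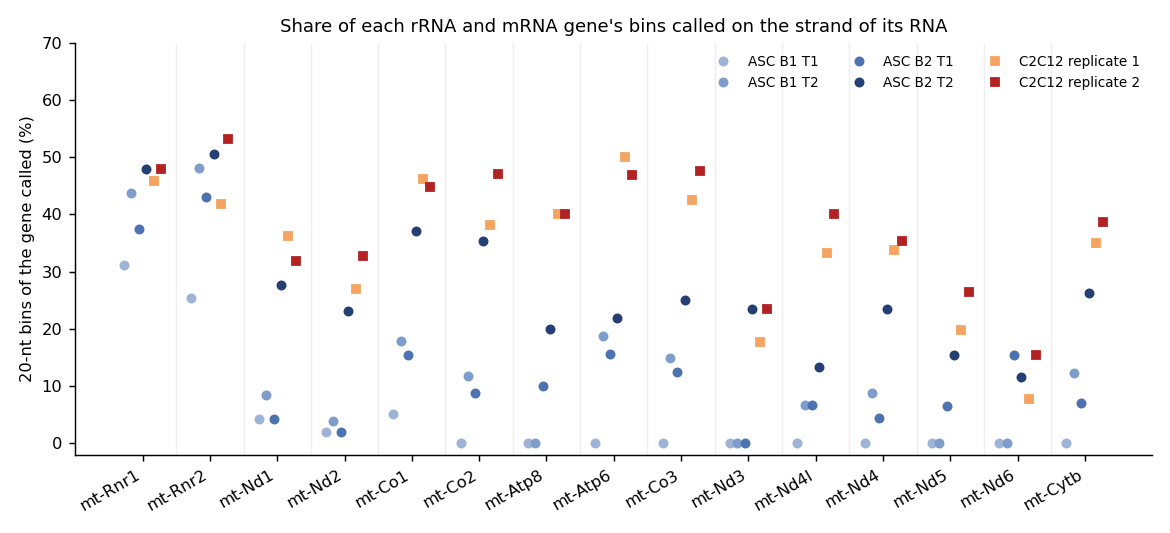
Percent of the 20-nt bins of each rRNA and mRNA gene that were called on the strand of its RNA, 1 point per library (circles ASC-48h, squares C2C12). Over mt-Rnr1 and mt-Rnr2 the points of both cell types overlap, and over mt-Co3 both C2C12 points (42.5% and 47.5%) lie above all ASC-48h points (0 to 25.0%).

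All 22 tRNAs had a peak on their own strand in at least 1 library. By ASC-48h mean the highest was in mt-Tv, chrM:1041-1060, with 16, 34, 33 and 34 reads per bin in ASC-48h and 32 and 33 in C2C12. There B1 T1 was low and the other 5 libraries were alike. A second peak spans the end of mt-Tv and the start of mt-Rnr2, chrM:1081-1100, with 14, 15, 13 and 13 in ASC-48h and 22 and 28 in C2C12. In mt-Tw, chrM:4961-4980 had 14, 23, 26 and 24 against 10 and 9.5. Of the bins called in all 6 libraries, this was the highest at which every ASC-48h library exceeded both C2C12 libraries.

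The tRNA for methionine, mt-Tm, had 14, 20.5, 12 and 25 reads per bin at chrM:3861-3880 in ASC-48h and 17 and 18.5 in C2C12. The tRNA for isoleucine, mt-Ti, had 9, 12, 11 and 6.5 at chrM:3741-3760 against 12 and 11. In both the groups overlapped. The bins that hold the 5′ end of a plus-strand gene were 2 of 34 plus-RNA bins called in all ASC-48h libraries (5.88%) and 7 of 227 in C2C12 (3.08%), against 28 of all 814 bins (3.44%). The share over all bins lay within the intervals of both (0.720 to 19.7% and 1.25 to 6.25%).

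RNA of the minus strand gave far fewer peaks. It held 3, 5, 16 and 30 in the ASC-48h libraries and 31 and 44 in the C2C12 libraries, and RNA of the plus strand held 40, 90, 91 and 165 against 189 and 198. Of the shared peaks, 33 of 36 in ASC-48h (91.7%) and 172 of 196 in C2C12 (87.8%) were of the plus strand. No peak of any library lay opposite the rRNAs, where all 127 bins were without a call. In the control region, which separates the last gene from mt-Tf and holds the start sites of transcription, all peaks were on RNA of the minus strand.

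The 3 ASC-48h shared peaks on RNA of the minus strand were in mt-Tp, mt-Ts1 and the control region. At chrM:15361-15380, mt-Tp had 9, 11, 10 and 11 reads per bin in ASC-48h and 8 and 7 in C2C12, so both C2C12 libraries were below all ASC-48h libraries. At chrM:6861-6880, mt-Ts1 had 12, 7, 5 and 7 in ASC-48h, no call in C2C12 replicate 1 and 9 in replicate 2. That bin also lies opposite the end of mt-Co1. The control region bin, chrM:15961-15980, had 5, 5, 6 and 9 against 7 and 11.5 and was called in all 6 libraries.

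None of the other minus-strand genes had a peak on its own strand in ASC B1 T1. mt-Te, the tRNA for glutamate, had 8, 11 and 8 reads per bin at chrM:14081-14100 in all ASC-48h libraries but B1 T1, and 7 and 12 in C2C12. On their own strand, mt-Ta and mt-Tn held 1 peak in each library but B1 T1, while mt-Tc and mt-Ty held 1 in ASC B2 T2 and in both C2C12 libraries. In ASC B1 T2 the mt-Ta and mt-Tn peaks are the same peak, chrM:5081-5100, across their border. In ASC B2 T2 and C2C12 replicate 2 the mt-Tc peak, chrM:5181-5200, lies only partly in the gene. mt-Tq held 2 and 1 peaks in ASC B2 T1 and B2 T2 and 1 in each C2C12 library. mt-Nd6, the only minus-strand mRNA, had 0, 0, 4 and 3 peaks in ASC-48h and 2 and 4 in C2C12.

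Of the 18 C2C12 shared peaks antisense to mRNAs, 10 lay opposite mt-Nd5, the gene next to mt-Nd6. mt-Nd5 held 0, 0, 3 and 10 antisense peaks in ASC-48h and 11 and 15 in C2C12. Chosen after its values were seen, antisense mt-Nd4 held 0, 0, 1 and 2 against 6 and 4, with 4 shared in C2C12. The bin at chrM:13381-13400 had the highest mean of those on RNA of the minus strand in C2C12, with 13 and 16 reads per bin, and had no call in ASC-48h. B1 of ASC-48h had no antisense peak over either gene, while B2 had them in both technical replicates. On the other strand, RNA of the plus strand opposite mt-Nd6 held 0, 1, 3 and 6 peaks in ASC-48h and 3 and 2 in C2C12. Its bin at chrM:13841-13860 was higher than any other antisense bin in C2C12, with 25 and 23 reads per bin, and had 8 and 19 in B2 of ASC-48h and no call in B1. Both antisense bins were chosen after their values were seen.

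**Figure D5:**
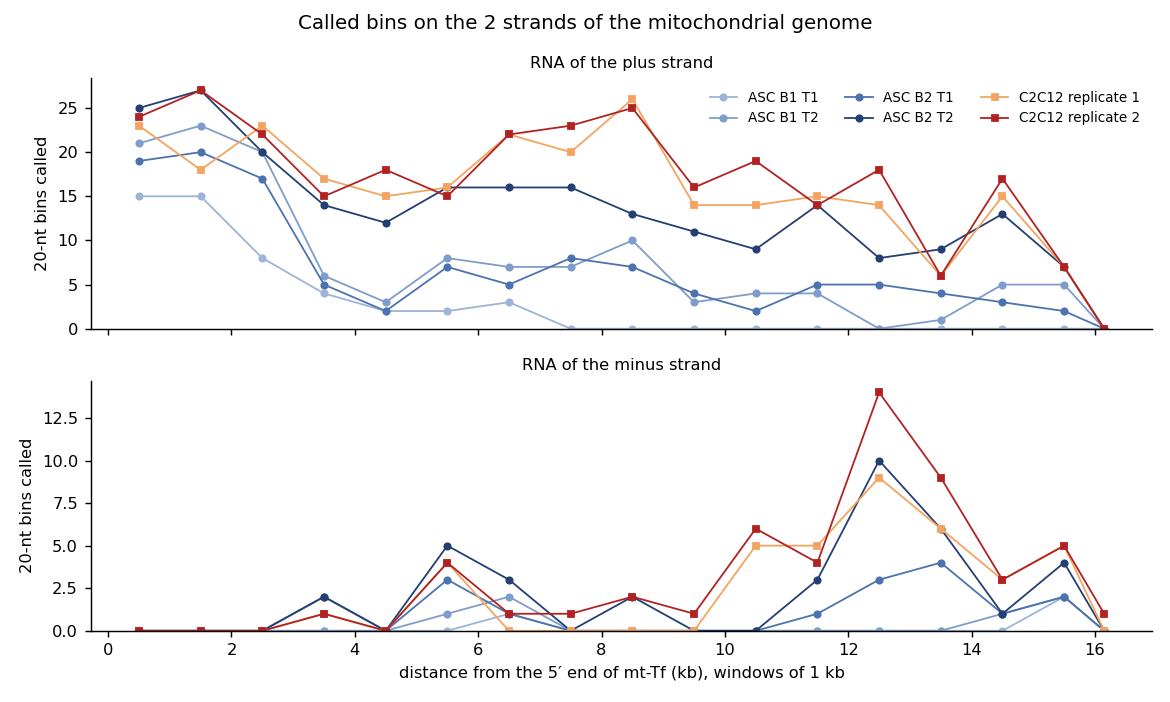
Called 20-nt bins per 1 kb window (x axis: distance from the 5′ end of mt-Tf in kb) on RNA of the plus strand (top) and of the minus strand (bottom), 1 line per library. On the minus strand no bin was called in the first 3 windows, and the highest count, 14 bins in C2C12 replicate 2, lies in the window over mt-Nd5.

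The share of called bins with a DRACH motif lay near that of bins at large. Over both strands, it was in 13 of 37 bins called in all ASC-48h libraries (35.1%, 20.2 to 52.5%) and in 77 of 253 called in both C2C12 libraries (30.4%, 24.8 to 36.5%). On RNA of the plus strand alone, the shares were 35.3% and 32.6%, and on RNA of the minus strand the C2C12 share was 11.5% (3 of 26). Of all 814 full bins, 276 hold it on RNA of the plus strand (33.9%) and 125 on RNA of the minus strand (15.4%). Within the rRNAs it was in 10 of 25 ASC-48h bins (40.0%) and 21 of 51 C2C12 bins (41.2%), against 48 of all 127 (37.8%). Within plus-strand mRNAs it was in 49 of 157 C2C12 bins (31.2%) against 168 of 541 (31.1%). Of the first 5 bins printed above, 2 hold the motif. With 20 nt added on both sides, the share on RNA of the plus strand was 91.2% in ASC-48h and 76.2% in C2C12, against 78.5% of all bins. On RNA of the minus strand it was 38.5% of the 26 C2C12 bins, against 42.6% of all bins. Within the rRNAs, which hold most of the ASC-48h bins, the ASC-48h share was 96.0% (24 of 25) against 87.4% of all rRNA bins. A match to these letters does not show that the site is methylated.

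Many reads of mitochondrial RNA also match the nuclear genome, which holds old insertions of mitochondrial DNA. The alignment kept up to 10 positions for a read with at most 2 mismatches, in the best class of match. Exact copies of the 20 nt were found outside chrM for 404 of the 814 full bins (49.6%), and this was less common in rRNA bins (12.6%) than in mRNA (56.4%) and tRNA (62.7%) bins. The longest near-identical copy is at chr1:24618374-24623027, which is 99.936% identical to chrM:6390-11042 over 4654 aligned positions, in reverse orientation. It covers parts of mt-Co1 and mt-Nd4 and all the genes between them.

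That insertion held 2, 24, 23 and 47 peaks in ASC-48h and 62 and 73 in C2C12. The matching stretch of chrM held 4, 29, 24 and 53 against 67 and 78. Of the peaks on the insertion, 1, 17, 12 and 33 in ASC-48h and 51 and 56 in C2C12 overlapped a chrM peak once their positions were carried over. On both places B1 T1 had fewest peaks and C2C12 replicate 2 most, and from which place a read came cannot be told apart. Without peaks that hold any bin whose 20 nt recur outside chrM, 25 ASC-48h and 87 C2C12 shared peaks were left. Of these, 80.0% and 35.6% lay in the rRNAs.

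YTHDC1 peaks were also counted in nuclear genes that serve the mitochondrion. Of 76 genes of the mitochondrial ribosome, 3 held an ASC-48h shared peak (3.95%, 0.822 to 11.1%) and 10 a C2C12 shared peak (13.2%, 6.49 to 22.9%). Of 91 nuclear genes of the respiratory chain, 2 (2.20%, 0.267 to 7.71%) and 19 (20.9%, 13.1 to 30.7%) did. Of 24 genes of mitochondrial RNA metabolism, 0 (0 to 14.2%) and 4 (16.7%, 4.74 to 37.4%) did. Over all 22225 nuclear protein-coding genes the shares were 2.47% and 21.9%, which lay within the intervals of all 3 lists. These lists were chosen with earlier results of the data known.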

How the data were processed

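YTHDC1 LACE-seq was measured in 4 ASC-48h and 2 C2C12 libraries. Per the labels and the methods of the study, the authors trimmed reads with cutadapt 1.15, aligned them with Bowtie 1.2.3 to mm9, keeping up to 10 positions with at most 2 mismatches, and called peaks per library in 20-nt bins with Piranha at p = 0.001 (stated for ASC-48h). The treatment of duplicate reads is not given in the sources used here. The deposited signal is the mean number of reads per bin of a peak, and the p-value deposited beside it was given by Piranha. Depth beyond the peaks is unknown.

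Groups were taken from the labels. Peaks were shared when they overlapped by 1 nt or more on the same strand, T1 with T2 and then B1 with B2, and the first list was counted. Reads of a peak are its signal times its bins. Genes came from GENCODE vM1 on the same build (NCBIM37). A peak was placed by overlap, with rRNA before other classes, and a bin by the gene at its midpoint. Copies in the nuclear genome were exact 20-nt matches on either strand, without the unplaced sequences that the reference lacks, and blastn 2.17.0 alignments of at least 75% identity. Shares carry exact Clopper-Pearson 95% intervals. The share of mitochondrial reads was compared by an exact two-sided permutation test over biological replicates, technical replicates averaged, with SciPy 1.17.1. Overlap and copy counting were tested on simulated data. Nothing in the labels says that replicates came from separate animals or cultures beyond their names, so the test measures the spread between these samples and counts the C2C12 libraries as biological replicates, as labelled.

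Genes named are both rRNAs, those with an ASC-48h shared peak, the 3 mRNAs with most and the 3 with fewest C2C12 shared peaks per kb, minus-strand genes with a peak in 2 or more libraries, and the 5 highest shared peaks of each cell type, ties included; others are said to be chosen after their values were seen. The members, lists and rules were chosen with earlier results of these data known. Alternatives were other overlaps, p and read limits, removal of chrM peaks with a nuclear copy of any bin, leaving out each library, other placements and other motif windows. Peaks on the nuclear insertions stayed in the totals.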

Additional observations from a re-analysis of the deposited data

Results flagged for a closer look

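Dixon's test compared the lowest or highest library with the others in 46 quantities of the ASC-48h libraries. These were summary shares, counts and the shared peaks with a call in all 4. Chance passes the test in about 1 of 20 groups of independent samples. The ASC-48h libraries are pairs of technical replicates, so this rate may not hold for them. The test singled out 2 quantities. At chrM:1521-1540 of mt-Rnr2, B2 T2 had 53 reads per bin against 20, 23 and 24 in the others. At chrM:1041-1060 of mt-Tv, B1 T1 had 16 reads per bin against 33 and 34 in the others.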

How the results depend on the processing

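Of 123 recomputed values, 92 were labelled unchanged. Limits were 1.5 times for counts and the interval or SD of the reported value for shares. The difference of read shares kept its sign and was among the 92 at each setting. At 6 reads per bin or more it was -1.78 percentage points, against -0.93 as reported. Some of the 92 could not move. Bins lie on a fixed 20-nt grid, so overlaps of at least 1 and 10 nt pick the same peaks. No C2C12 bin was called below 6 reads, and the replicate block, given below, fixes the difference. At p of at most 0.00001 the shared peaks fell to 12 in ASC-48h and 76 in C2C12, with 7 ASC-48h peaks found in C2C12 and 93.4% of C2C12 shared peaks on RNA of the plus strand. At 10 reads per bin or more they were 10, 112 and 6, with 100% and 94.6% on the plus strand. With the 43 highest peaks of each library they were 20, 28 and 11, with 50.0% of the C2C12 peaks in the rRNAs and 100% on the plus strand. Both of these were added after seeing the data. Without nuclear copies, 87 C2C12 peaks were left, 35.6% of them in the rRNAs. By reads, the C2C12 rRNA share was 25.1%.

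The mitochondrial share of reads in peaks, 1.65% and 0.718%, became 0.941% and 0.350% as a share of peaks, 2.96% and 1.71% at p of at most 0.00001, and 0.946% and 0.329% without nuclear copies. With 6 reads per bin or more it was 2.50% in ASC-48h. The C2C12 share of bins with RRACH, the motif without T at its first place, was 17.4%. On RNA of the plus strand alone it was 18.5% (13.7 to 24.2%), against 29.4% in ASC-48h (15.1 to 47.5%) and 22.5% of all bins, which lay within both intervals. With 20 nt on both sides 72.3% held DRACH, against 86.5% in ASC-48h, both strands together.

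Leaving out 1 library in turn, the ASC-48h shared peaks ranged from 36 to 60, those found in C2C12 from 29 to 54, the ASC-48h rRNA share from 50.0% to 71.1% and the plus-strand share from 91.7% to 93.3%. With 1 C2C12 library left nothing can be shared, so the values are those of all mitochondrial peaks of a single library and say nothing of the stability of the shared peaks: 220 to 242 peaks, 14.9% to 17.3% in the rRNAs and 81.8% to 85.9% on the plus strand. The read shares ranged from 1.44% to 1.85% and from 0.683% to 0.752%, and their difference from -1.13 to -0.72. With the replicate number as a block, the difference was -0.93, the same value, since the mean of paired differences equals the difference of means, and numbers shared between cell types mark no common origin. A bin without a call may still hold reads, since the lowest value called was 4 to 6 reads per bin and bins below that were not called.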
